A study of Homo sapiens with 8 samples.

Results

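The AXL family comprises 5 genes here, the receptor tyrosine kinases AXL, TYRO3 and MERTK and their ligands GAS6 and PROS1, out of 18417 genes that the arrays could name. Members were the genes with probe sets, groups of short probes summarised to 1 value, whose annotation names a single member gene, 6 probe sets in all. PROS1 had 2, of which the brighter was used. All 5 members passed the filter on dim genes, which left 16910 genes to test. AXL had been picked because it was higher in the ABCB5-positive array of COLO741 and HT29, so its differences between sorted populations are descriptions, with no test. The other 4 came with it as its relatives.

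The study measured RNA of sorted human tumour cell lines to set cells that carry ABCB5, a membrane transporter of the ATP-binding cassette family, against cells that do not, on 8 Affymetrix Human Gene 1.0 ST arrays. The established lines COLO741, SW620, HT29 and HCT116 are labelled as colon carcinoma or adenocarcinoma, with SW620 from a lymph node metastasis, though the series design text has SW480 in the place of SW620. All were grown in medium with serum and antibiotics, with no drug named in the labels, and each was sorted with an antibody against the ABCB5 protein into an ABCB5-positive and an ABCB5-negative population. Each population of each line gave 1 array, so that both groups held 4 arrays and each line 2. The labels name no separate cultures, so p-values measure the spread between these arrays, which may in part be technical.

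The 3 receptors bind phosphatidylserine, a lipid that dying cells turn outward, through bridging ligands. These are GAS6, which binds all 3 receptors, and protein S, the product of PROS1. Glutamates of both ligands must be carboxylated by a vitamin K dependent enzyme. Macrophages use MERTK and AXL to take up apoptotic cells, and the receptors damp inflammatory signalling. In tumour cells AXL is known for cell survival, invasion and a mesenchymal state, and in melanoma for cells with little of the pigment cell regulator MITF.

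Whole-series checks bear on how the labels read. The arrays of a line correlated at 0.993 to 0.996 over all probe sets. ABCB5 itself went against the labels in COLO741, at a log2 level of 9.42 on the negative and 8.14 on the positive array, while in the other lines it lay between 5.24 and 5.69, at background. Background was judged by 360 probe sets of olfactory receptor genes, whose means had a median of 5.73 and a 95th percentile of 7.5. Of 13 colon epithelium markers 12 were lower in COLO741 than in the mean of the other lines (limma, adjusted p under 0.05, where 26% of all genes were called lower), and 7 of 7 melanocyte markers were higher (23.7% of all genes). EPCAM, the epithelial adhesion molecule, had a COLO741 mean of 5.90 against 13.34 to 13.74 in the other lines. In SW620 the array labelled ABCB5-positive also carried macrophage and monocyte transcripts, with 5 of 14 at least 1.5-fold higher, where 1.79% of all genes were.

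AXL, the receptor that gives the family its name, was brightest in HCT116. Its log2 level in the ABCB5-negative and ABCB5-positive arrays was 11.66 and 11.72 in HCT116, 10.34 and 10.45 in SW620, 8.52 and 9.53 in HT29, and 8.31 and 9.43 in COLO741. Every array of HCT116 and SW620 lay above every array of HT29 and COLO741. The line means spanned 2.82 log2 units, or 7.07-fold. Neighbours in this order differed between HCT116 and SW620 by 2.45-fold (limma adjusted p = 0.0127) and between SW620 and HT29 by 2.59-fold (limma adjusted p = 0.0096). HT29 and COLO741 were not told apart, at a COLO741 minus HT29 difference of -0.16 with a 95% interval of -0.85 to 0.53 (limma adjusted p = 0.704). The spread in these AXL tests comes from its unequal differences between the populations, which AXL was chosen for. The standard error for a pair of lines was 0.29 for AXL, against 0.11 to 0.14 for the other members.

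MERTK, the receptor best known from phagocytes, showed the same split of the lines. In HCT116 it measured 9.34 in the ABCB5-negative and 9.20 in the ABCB5-positive array, and in SW620 9.19 and 9.29. In HT29 it measured 7.45 and 7.86, and in COLO741 7.60 and 7.66, close to the 95th percentile of background on all 4 arrays. The lines thus formed a high and a low pair without overlap. MERTK was 2.99-fold higher in SW620 than in HT29 (limma adjusted p = 0.000214), while within the pairs the difference was -0.03 for SW620 minus HCT116 and -0.03 for COLO741 minus HT29 (limma adjusted p = 0.886 and 0.880). Their 95% intervals ran from -0.35 to 0.30 and from -0.36 to 0.30. Since the lower pair sits near background, the ratio may understate the gap.

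GAS6, the ligand that binds all 3 receptors, was again high in SW620 and HCT116. Its log2 level in the ABCB5-negative and ABCB5-positive arrays was 10.49 and 10.79 in SW620, 10.16 and 10.07 in HCT116, 8.38 and 8.64 in COLO741, and 7.44 and 7.53 in HT29. No line overlapped another, and the HT29 arrays lay at the background percentile. Line means spanned 8.92-fold between SW620 and HT29 (limma adjusted p = 6.69e-06). All neighbours differed, SW620 from HCT116 by 1.44-fold (limma adjusted p = 0.0133), HCT116 from COLO741 by 3.05-fold (limma adjusted p = 8.88e-05) and COLO741 from HT29 by 2.03-fold (limma adjusted p = 0.000540). GAS6-AS1, an antisense transcript that shares the locus, stayed between 6.39 and 6.96 on all 8 arrays, under the background percentile.

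PROS1, which encodes the anticoagulant protein S, did not share this split and was brightest in COLO741. It measured 12.84 in the ABCB5-negative and 12.89 in the ABCB5-positive array of COLO741, 10.59 and 10.72 in HT29, 10.44 and 10.23 in SW620, and 9.65 and 9.64 in HCT116. COLO741 stood above all other arrays and HCT116 below them. PROS1 in COLO741 was 4.63-fold above HT29 (limma adjusted p = 1.02e-05) and 9.32-fold above HCT116 (limma adjusted p = 3.23e-06). HT29 and SW620 were next to each other at a SW620 minus HT29 difference of -0.32 (95% interval -0.58 to -0.06, limma adjusted p = 0.0533). This difference passed under 4 of the alternatives, at limma adjusted p between 0.0350 and 0.0435. It failed under others, at limma adjusted p of 0.0510 with quantile normalization and 0.0581 without the filter. With the mean of both probe sets it was -0.19 (limma adjusted p = 0.157). SW620 lay 1.61-fold above HCT116 (limma adjusted p = 0.00291). The second PROS1 probe set gave line means of 11.46 in COLO741, 8.87 in HT29, 8.82 in SW620 and 7.93 in HCT116, the same order. Between the populations the 2 probe sets differed in sign in all lines but SW620. A pseudogene copy of PROS1 exists, and whether these probes read it was not tested.

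TYRO3, the receptor best known from the nervous system, varied least among the 5. It measured 11.14 in the ABCB5-negative and 11.37 in the ABCB5-positive array of COLO741, 10.59 and 10.54 in HCT116, 10.54 and 10.51 in SW620, and 9.62 and 9.85 in HT29. COLO741 was the highest line and HT29 the lowest, with no overlap. COLO741 was 1.61-fold above HCT116 (limma adjusted p = 0.00261) and SW620 1.73-fold above HT29 (limma adjusted p = 0.00171). HCT116 and SW620 were not told apart, with a SW620 minus HCT116 difference of -0.04 and a 95% interval of -0.31 to 0.22 (limma adjusted p = 0.777). TYRO3 also has a pseudogene copy, and whether its probes read it was not tested.

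**Figure D1:**
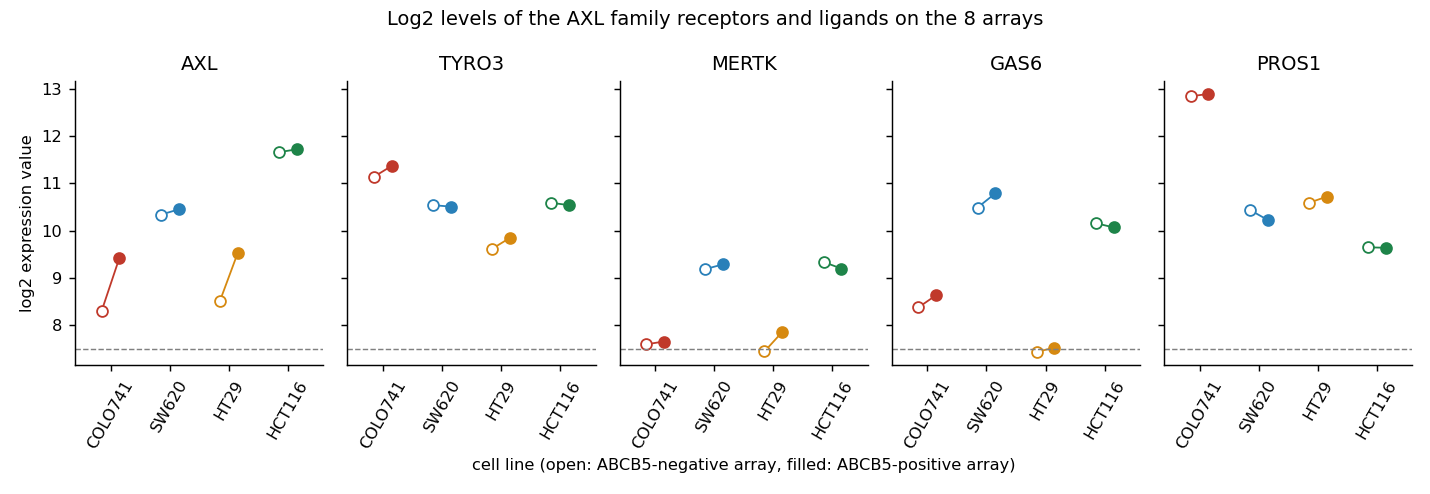
Log2 expression value (vertical axis) of each member in the 4 lines (horizontal axis). Open points are the arrays labelled ABCB5-negative, filled points those labelled ABCB5-positive, lines join the 2 arrays of a line, and the dashed line is the 95th percentile of background, 7.5. AXL, MERTK and GAS6 are high in SW620 and HCT116, PROS1 and TYRO3 are highest in COLO741, and AXL differs between the populations by 1.12 in COLO741 and 1.01 in HT29.

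Over the 30 comparisons of a member between 2 lines, 25 passed limma at an adjusted p under 0.05, and 19 of these were at least 2-fold. Differences between these lines are common: of all genes tested 47% passed between COLO741 and SW620, 45.3% between COLO741 and HT29, 45.9% between COLO741 and HCT116, 40% between SW620 and HT29, 38.9% between SW620 and HCT116 and 39% between HT29 and HCT116. At 2-fold or more the shares were 16.3%, 17.6%, 15.1%, 13%, 11.4% and 12.3% in that order. AXL passed in 5 of 6 pairs, TYRO3 in 5, MERTK in 4, GAS6 in 6 and PROS1 in 5. Of all genes tested, 6.39% had a wider span over the 8 arrays than AXL (3.41 log2 units), 6.62% than GAS6 (3.35), 7.04% than PROS1 (3.25), 16.8% than MERTK (1.88) and 18.5% than TYRO3 (1.75).

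**Figure D2:**
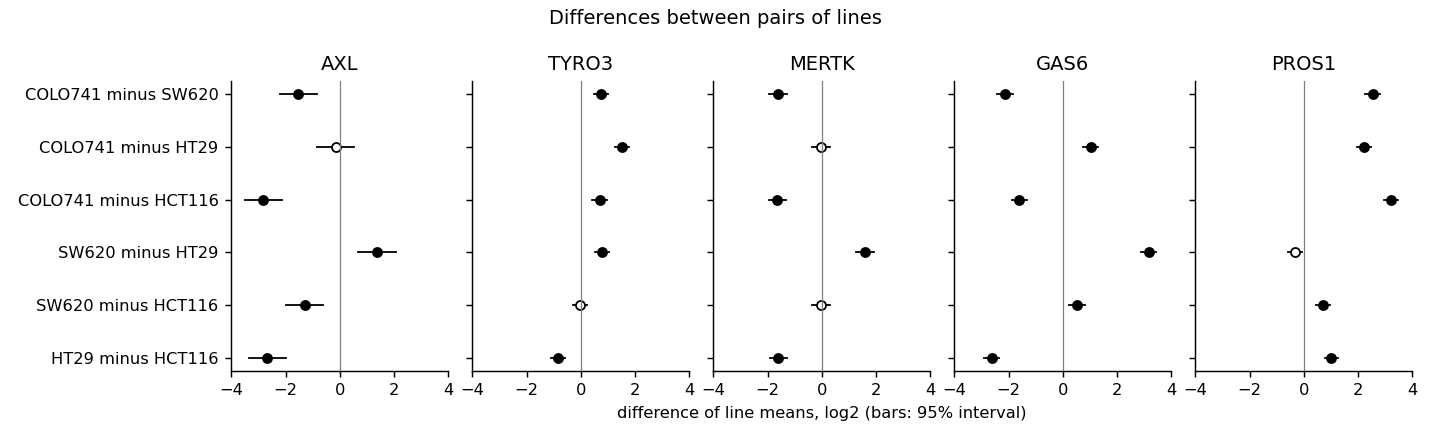
Difference of line means on the log2 scale (horizontal axis) for the 6 pairs of lines (vertical axis), 1 panel per member. Bars are 95% intervals from the moderated variance, filled points passed limma at an adjusted p under 0.05 and open points did not. GAS6 passed in all 6 pairs and MERTK in 4, with its 2 open points at -0.03.

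AXL, MERTK and GAS6 shared the split of the lines, while PROS1 did not and was highest in COLO741 and lowest in HCT116. The bases before the starts of these 4 genes are shown, from RefSeq on GRCh38.p14, as 250 bases per gene read toward the start. Capitals mark matches to the GC box GGGCGG, the motif of SP1 and SP3, on either strand.
AXL, chr19:41218973-41219222, plus strand: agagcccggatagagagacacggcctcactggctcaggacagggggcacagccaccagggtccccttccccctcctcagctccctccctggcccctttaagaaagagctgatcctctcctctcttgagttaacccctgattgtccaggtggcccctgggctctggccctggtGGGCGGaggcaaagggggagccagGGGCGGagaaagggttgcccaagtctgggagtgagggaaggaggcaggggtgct
MERTK, chr2:111898357-111898606, plus strand: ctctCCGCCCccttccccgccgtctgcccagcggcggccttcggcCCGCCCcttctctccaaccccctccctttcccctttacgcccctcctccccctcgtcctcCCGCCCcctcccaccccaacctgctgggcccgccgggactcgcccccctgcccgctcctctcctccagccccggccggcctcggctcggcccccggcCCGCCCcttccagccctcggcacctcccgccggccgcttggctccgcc
GAS6, chr13:113864077-113864326, minus strand: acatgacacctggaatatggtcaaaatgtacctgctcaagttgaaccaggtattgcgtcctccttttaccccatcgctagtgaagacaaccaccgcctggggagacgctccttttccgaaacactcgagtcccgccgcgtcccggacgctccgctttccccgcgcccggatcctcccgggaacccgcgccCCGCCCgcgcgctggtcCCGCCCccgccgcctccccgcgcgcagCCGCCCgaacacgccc
PROS1, chr3:93973897-93974146, minus strand: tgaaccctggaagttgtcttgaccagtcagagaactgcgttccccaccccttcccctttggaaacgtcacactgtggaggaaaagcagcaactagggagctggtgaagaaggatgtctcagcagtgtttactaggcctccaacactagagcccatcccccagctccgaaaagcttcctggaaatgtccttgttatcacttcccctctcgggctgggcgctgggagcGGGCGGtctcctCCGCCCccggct
The window of AXL held 2 GC boxes, that of MERTK 4, that of GAS6 3 and that of PROS1 2, with no overlap between matches, and 42.6% of 35116 such windows of all genes held at least 1. The AP-1 motif TGANTCA, present in 6.57% of windows, and the E-box CACGTG, the motif class of MITF and present in 6.34%, had no match in these 4 windows on either strand. The MERTK window was 78.8% G and C, against 64.4% for AXL, 66.8% for GAS6 and 57.6% for PROS1. A second annotated start of AXL had no match to any of the 3 motifs. The window of TYRO3, which is not shown, held 3 GC boxes and 1 AP-1 match. Letters alone do not say what binds there.

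Between the sorted populations, AXL was higher in the array labelled ABCB5-positive in all 4 lines, by very unequal amounts. The difference was 1.12 in COLO741 (2.17-fold) and 1.01 in HT29 (2.02-fold), against 0.11 in SW620 and 0.05 in HCT116, with a mean of 0.57 ± 0.57 (log2, SD, n = 4). The difference was large in the lines where the AXL level was low and small in the lines where it was high. In both COLO741 and HT29 the ABCB5-positive array still lay below all arrays of SW620 and HCT116. In COLO741 178 of the 16910 genes (1.05%) had a larger difference, in HT29 41 (0.242%), in SW620 4796 and in HCT116 4728. These shares describe the values that AXL was chosen for. The mean was 0.39 without COLO741, 0.73 without SW620, 0.43 without HT29 and 0.75 without HCT116. In COLO741 the array with more AXL was the one with less ABCB5 transcript, so the direction there rests on labels that ABCB5 opposes.

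At least 2-fold higher in both COLO741 and HT29 were 4 genes, or 0.0237% of those tested. Beside AXL these were MCUB, a regulator of mitochondrial calcium uptake, MYEF2 and TGM2, a transglutaminase that crosslinks proteins, named after their values were seen. Since AXL was picked by such a rise, nothing is read from this count.

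No other member reached 1.5-fold between the populations of any line, where 0.432% of genes did in HCT116, 1.62% in HT29, 2.42% in SW620 and 5.62% in COLO741. The largest of their differences was that of MERTK in HT29, 0.41 or 1.33-fold, from a level at background, and 2.81% of genes had a larger one there. GAS6 differed by 0.30 in SW620, 0.26 in COLO741, 0.08 in HT29 and -0.08 in HCT116, a mean of 0.14 ± 0.18 (log2, SD, n = 4). MERTK averaged 0.11 ± 0.23, with 0.06 in COLO741, 0.10 in SW620 and -0.14 in HCT116. TYRO3 averaged 0.10 ± 0.16, with 0.23 in both COLO741 and HT29 but -0.03 in SW620 and -0.05 in HCT116. PROS1 averaged -0.01 ± 0.15, with -0.21 in SW620 as its lowest value and 0.13 in HT29 as its highest.

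Over all 4 lines 0 of these 4 members passed limma with the line as a block, and 0% of all genes did, while 4.4% had an unadjusted p under 0.05. Adjusted p was 0.898 for TYRO3 and GAS6, 0.905 for MERTK and 0.986 for PROS1, and unadjusted p 0.261, 0.136, 0.310 and 0.906. The 95% intervals were -0.09 to 0.28 for TYRO3, -0.06 to 0.34 for GAS6, -0.13 to 0.34 for MERTK and -0.19 to 0.17 for PROS1. All 4 intervals included 0 and none reached past 0.34 on the log2 scale. The MERTK mean was 0.00 without HT29 and 0.19 without HCT116, the GAS6 mean 0.22 without HCT116, and the TYRO3 mean 0.05 without COLO741 or without HT29.

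**Figure D3:**
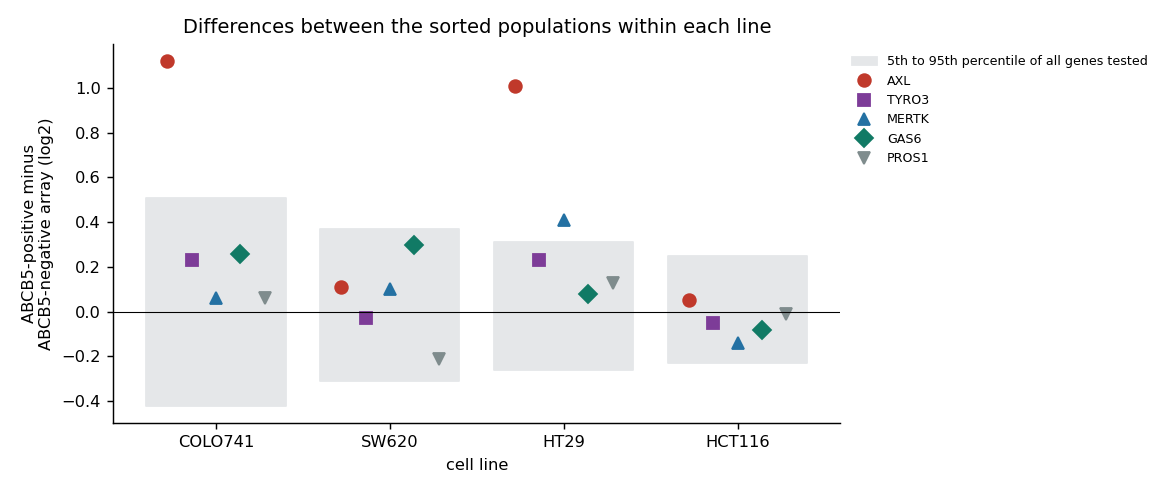
Difference of the ABCB5-positive minus the ABCB5-negative array on the log2 scale (vertical axis) in each line (horizontal axis) for the 5 members. Grey boxes span the 5th to 95th percentile of the differences of all 16910 genes tested. AXL lies above the box in COLO741 and HT29, MERTK at 0.41 above it in HT29, and the other points lie inside.

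Macrophages carry MERTK and AXL, so their marker levels are given beside these values. The median log2 level of 15 macrophage and monocyte markers was 7.10 to 7.34 in the 4 ABCB5-negative arrays and 6.81 to 7.88 in the 4 ABCB5-positive arrays, with the highest value in SW620. There 11 of 14 tested markers were higher (9139 of all 16910 genes tested), with CYBB at 6.06 and 9.28. C1QA (6.69 and 6.34), C1QB (7.23 and 7.03) and SPI1 (8.19 and 8.05) were lower. PTPRC, the pan-leukocyte marker, was too dim to be among those tested. It measured 4.87 and 6.96, under the background percentile on both arrays. MERTK differed in SW620 by 0.10 and AXL by 0.11. In COLO741 5 of 14 were higher (7705 of all 16910 genes) with a median of -0.08. There LAPTM5 was at least 1.5-fold higher (4.02% of all genes), at 7.35 and 8.10, and CD68 at least 1.5-fold lower (1.61%), at 13.03 and 12.17. In HT29 9 of 14 were higher (8217 of all 16910 genes) with a median of 0.04 and 0 at 1.5-fold (1.62% of all genes in either direction). Of fibroblast and endothelial markers, 8 of 11 were higher in COLO741, with a median of 0.11 and 1, the endothelial receptor gene KDR, at 1.5-fold. In HT29 5 of 11 were higher, with a median of -0.01. The shares over all genes in these lines are those just given. PTPRC lay between 4.85 and 5.11 on the arrays of COLO741 and HT29, below background.

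Genes that are known to go with AXL in melanoma were higher in the same COLO741 array. Of 13 tested genes of the AXL-high state, 11 were higher and 9 at least 1.5-fold (4.02% of all genes), with a median difference of 0.76 against -0.024 over all genes. ZEB1, a repressor of epithelial genes, measured 7.43 in the ABCB5-negative and 9.81 in the ABCB5-positive array, a difference of 2.39. TNC, the matrix protein tenascin C, measured 10.19 and 11.99, and LOXL2, an enzyme that crosslinks collagen, 9.32 and 10.82. The Hippo pathway target CCN2 measured 9.77 and 10.90. The difference was small for THBS1, the matrix protein thrombospondin, at 8.70 and 8.80, and for the growth factor gene NRG1, at 8.21 and 8.48. NGFR, the neural crest receptor, did not share the direction, at 8.67 and 8.55, nor did the cytokine gene IL6, at 8.60 and 8.54. The list was drawn up with earlier results of these arrays known, and 1 array per population gives no test within a line. Between lines the list did not run in the order of AXL. In COLO741, where AXL was low, limma called 7 of 13 higher and 3 lower than in the mean of the other lines (23.7% and 26% of all genes), with a median of 1.25. In HCT116, where AXL was brightest, 4 were higher and 5 lower (3671 and 3465 of the 16910 genes), with a median of 0.32.

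Of 10 tested genes of the MITF-high state, 9 were lower in that array and 4 at least 1.5-fold lower (1.61% of all genes), with a median of -0.22. TRPM1, a melanocyte ion channel, measured 8.56 in the ABCB5-negative and 7.53 in the ABCB5-positive array, GPR143, a melanosome receptor, 9.21 and 8.24, and TYRP1, an enzyme of melanin synthesis, 14.30 and 13.69. The melanosome genes PMEL and MLANA differed less, PMEL at 14.49 and 14.39 and MLANA at 13.49 and 13.24. MITF itself measured 12.79 and 12.73 and stayed bright in both. In HT29, where AXL differed as much, 9 of 13 AXL-high genes were higher with a median of 0.15, and 2 reached 1.5-fold (1.24% of all genes), TGFBI at 9.84 and 10.97 and TNC at 9.24 and 9.91. In SW620 5 of 13 were higher (median -0.17) and in HCT116 8 of 13 (median 0.09), with 0 at 1.5-fold in either (1.79% and 0.29% of all genes). Of all 16910 genes tested 7705 were higher in COLO741, 8217 in HT29, 9139 in SW620 and 7704 in HCT116.

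**Figure D4:**
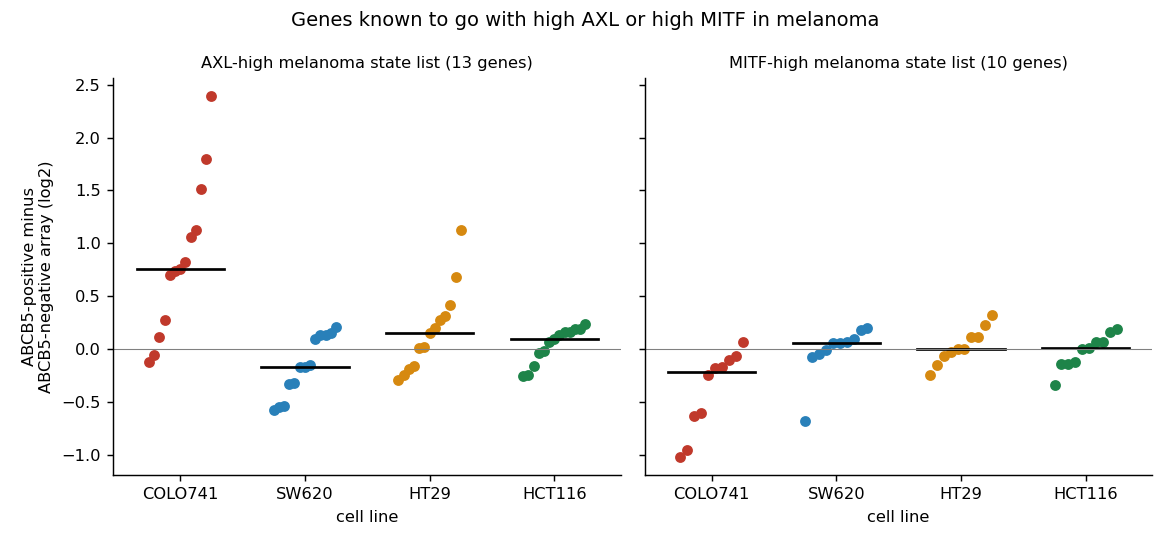
Difference of the ABCB5-positive minus the ABCB5-negative array on the log2 scale (vertical axis) in each line (horizontal axis), for 13 genes known to go with high AXL (left) and 10 with high MITF (right) in melanoma. Each point is 1 gene and the bar is the median. In COLO741 the medians are 0.76 and -0.22.

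Other genes of the pathway were taken from fixed lists, and 73.1% of all genes tested passed limma in at least 1 line against the mean of the other lines. Of the 3 TAM ligands outside the vitamin K family 2 passed. TUB, a phagocytosis ligand of the tubby family, was higher in COLO741 at 9.04 and 8.96 on its 2 arrays against line means of 7.19 to 7.36, and LGALS3, galectin 3, was lower in HCT116 at 9.71 against 10.46 to 10.90. Of the 5 genes of the vitamin K cycle and protein processing, all 5 passed, 4 of them higher in COLO741 (23.7% of all genes). These included GGCX, the carboxylase that acts on GAS6 and protein S, at 11.23 against 9.50 to 9.91, and the protease FURIN at 11.57 against 9.36 to 10.11. VKORC1, which recycles vitamin K, measured 12.78 in COLO741 and 12.12 to 12.49 elsewhere. COLO741 thus had the brightest PROS1 and GGCX of the 4 lines.

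All 6 genes of receptor shedding passed. ADAM17, a protease that releases receptor ectodomains, had line means of 11.62 in COLO741 and 10.50 to 11.04 in the others, while TIMP3, an inhibitor of such proteases, measured 14.15 in COLO741 and 7.51 to 8.29 elsewhere. RHBDF1, a partner that matures ADAM17, was highest in HT29 at 11.63 against 8.97 to 9.79. Of 7 tested genes of phosphatidylserine exposure 5 passed, among them the scramblase PLSCR1 at 12.42 in COLO741 and 10.13 to 10.98 elsewhere, XKR8, a scramblase that caspases switch on, at 8.51 in COLO741 and 9.02 to 9.42 elsewhere, and the flippase ATP11A at 11.24 in both COLO741 and HT29 and 10.38 and 10.49 in SW620 and HCT116. Of 9 tested receptors and bridges of apoptotic cell uptake 5 passed. All 5 were higher in COLO741 (23.7% of all genes) and all 5 lower in SW620 (3878 of the 16910 genes). MFGE8, the bridge to integrins, measured 12.56 in COLO741 and 10.24 to 11.01 elsewhere. LRP1 measured 11.03 in COLO741 and 8.23 in HCT116, and the integrin subunit ITGAV 12.12 and 10.37 in COLO741 and SW620.

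Signalling partners passed in 21 of 22 cases, with 10 higher and 6 lower in COLO741 (23.7% and 26% of all genes). The kinase FYN had a line mean of 12.38 in SW620 and 8.56 in HCT116, its relative LYN 12.31 in HCT116 and 8.67 in HT29, and VAV3, an exchange factor, 7.85 in COLO741 and 5.07 to 5.16, at background, in the others. Of 6 receptors reported to signal together with AXL 5 passed. EGFR, the epidermal growth factor receptor, measured 11.14 in HT29, 10.59 in HCT116, 8.62 in COLO741 and 6.98 in SW620, an order unlike that of AXL. ERBB3 was lowest in HCT116 at 9.41 and ERBB2 lowest in SW620 at 9.18. Of 13 factors reported at the AXL promoter 11 passed. WWTR1, the Hippo coactivator TAZ, measured 13.02 in COLO741, 11.74 in HCT116, 9.93 in SW620 and 7.20 in HT29, EPAS1 7.02 in SW620 and 10.26 to 10.66 elsewhere, and JUN 11.46 and 11.69 in SW620 and HT29 against 9.56 and 9.79 in COLO741 and HCT116.

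Between the sorted populations 0 genes of these 8 lists passed limma over all lines, and their median differences lay between -0.08 and 0.05, against 0.00 over all genes. Those of smallest unadjusted p included EGFR at 0.37 ± 0.36 (log2, SD, n = 4), with 0.70 in HT29, 0.51 in COLO741, 0.43 in SW620 and -0.14 in HCT116. PLSCR1 measured -0.20 ± 0.14, TUB -0.16 ± 0.07 and ITGB5, an integrin subunit of apoptotic cell uptake, 0.20 ± 0.17. FYN measured -0.20 ± 0.21, TIMP3 0.24 ± 0.27, RHBDF1 0.18 ± 0.22 and PTK2, focal adhesion kinase, 0.16 ± 0.15. The others of smallest unadjusted p in their list were closer to 0. XKR8 measured 0.15 ± 0.17, VKORC1 0.12 ± 0.16, FURIN 0.11 ± 0.06, ITGAV 0.10 ± 0.13 and LGALS3 -0.08 ± 0.19. The interferon receptor gene IFNAR1 measured -0.10 ± 0.10, the Hippo coactivator gene YAP1 0.11 ± 0.10 and SP1 0.11 ± 0.06.

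For each member the 3 genes with the highest Pearson r over the 8 arrays were named, among 6557 genes whose values spanned at least 1 log2 unit. The 8 arrays are 4 lines in pairs, so a high r mostly reflects 4 levels. Nearest to AXL were MPP7, a scaffold protein of cell junctions, at r = 0.984, MDK, the growth factor midkine, at 0.978 and the melatonin receptor gene MTNR1A at 0.977. MPP7 shared the differences between populations in part, at 1.81 in COLO741 and 0.58 in HT29, with -0.11 in SW620. Its r was taken over the same 8 arrays, including the differences that AXL was chosen for, so nothing is read from this. MERTK lay nearest to FAM169A (0.995), STC2, a secreted stanniocalcin (0.994), and ECI2 (0.992). GAS6 lay nearest to the histone variant gene MACROH2A2 (0.995), SYT1, a synaptic vesicle protein (0.992), and the metal transporter gene SLC39A14 (0.988).

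TYRO3 lay nearest to PIP4P2 (0.996), SIRPA, the receptor of the CD47 signal (0.993), and NEO1, neogenin (0.992). PROS1 lay nearest to AHCYL1 (0.997), the chloride channel family gene CLIC4 (0.996) and GPR137 (0.996). Among the members themselves r was 0.934 between MERTK and GAS6, 0.897 between AXL and MERTK and 0.768 between AXL and GAS6. It was -0.737 between AXL and PROS1 and 0.052 between AXL and TYRO3. By likeness to AXL, MERTK stood at rank 114 and GAS6 at rank 531 among the 6557 genes. Genes outside the family thus lay nearer to AXL than either did.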

How the data were processed

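RNA of 8 sorted populations of 4 cell lines was measured on 1 array each. The authors deposited log2 expression values for 33297 probe sets, made with Affymetrix Expression Console per the submitters' processing notes. The log2 scale was read from the range of 2.99 to 15.24. For the version, summarisation and normalization, nothing is given in the sources used here. The values, with array medians of 8.03 to 8.10, were used as deposited.

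Of the probe sets 19460 named 1 gene through the platform annotation, with symbols updated on GRCh38.p14, and the brightest of a gene was used. Genes with a mean under 5.73, the median of 360 olfactory receptor probe sets, were left out. limma 3.58.1 in R 4.3.3 fitted line and population per gene, two-sided, with Benjamini-Hochberg adjustment over 16910 genes at 0.05. Both populations of a line were sorted from that line, and deviations from the group means correlated at 0.866 to 0.916 within lines, so the line was a block. The fits were tested on simulated data. The number of arrays limits the precision.

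Members and gene lists were chosen with earlier results of these data known. Named were the members, ABCB5, and for each pathway or melanoma state list up to 3 genes with the widest range of line means among those passing and the 2 of smallest unadjusted p between the populations, with the 3 nearest genes of each member. EPCAM, CYBB, PTPRC, KDR, C1QA, C1QB, SPI1, LAPTM5 and CD68 of the cell type markers lie outside this rule. So do ZEB1, LOXL2, CCN2, IL6, TRPM1 and MITF of the melanoma states. All were picked after their values were seen, ZEB1, LOXL2, CCN2 and TRPM1 for their large differences in COLO741. Of the genes on the pathway and melanoma state lists 11 had no probe set naming them alone and were not analysed here. Alternatives were no block, a random block, no population term, 2 other scalings, 2 other filters, the mean of probe sets, an intensity trend, each line left out, and a 2-fold threshold.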

Additional observations from a re-analysis of the deposited data

How the results depend on the processing

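Between the populations 0 genes passed limma under every alternative run, where 744 genes had an unadjusted p under 0.05. With no block for the line that number was 27 and with a random block for the line 775, so pairing changed no call. Counts of genes between lines stayed within 1.5 times under every alternative. Past 2-fold instead of 1.5-fold within single lines were 5 genes in HCT116, 50 in HT29, 104 in SW620 and 275 in COLO741, and the strict filter, which tests fewer genes, left 257 in SW620 and 35 in HCT116.

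Of 470 member values between lines under alternatives, 453 kept direction and side of the threshold, 4 lost the call, 7 gained it and 6 changed sign. The changes of sign were all against the mean of the other lines. The makeup of that mean changes when a line is left out, but not under another scaling. TYRO3 in SW620, at 0.0048 in the main fit, was -0.05 with quantile normalization and -0.0031 with arrays centred on their medians. With 1 line left out it ran from -0.39 without HT29 to 0.37 without COLO741, and TYRO3 in HCT116 from -0.32 to 0.44 without the same lines. PROS1 in SW620 ran from -1.43 without HCT116 to 0.18 without COLO741, and PROS1 in HT29 from -0.94 to 0.67 without the same lines. Between the populations PROS1 ran from -0.06 without HT29 to 0.06 without SW620. With 2 arrays per line, members near background such as MERTK and GAS6 in HT29 limit what a ratio can show.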
